A study of Rattus norvegicus with 22 samples.

Results

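The testis-specific serine kinases are a small family of protein kinases. 5 rat genes were listed for it (Tssk1b, Tssk2, Tssk3, Tssk4 and Tssk6), and they were matched to the array through the accession printed with each probe that is not a control. 4 of the 5 listed genes had a probe, out of 15154 named genes in all. Tssk4 had none and was not analysed here. RNA came from germ cells of male rats gavaged with saline or with cyclophosphamide (CPA in the plots), an alkylating drug used against cancer, at 6 mg/kg, given 6 days per week for 4 weeks. Pachytene spermatocytes, cells in meiotic prophase, and round spermatids, the haploid cells that follow meiosis, were enriched by sedimentation at unit gravity. The groups were 5 saline and 5 cyclophosphamide arrays of pachytene spermatocytes and 6 saline and 6 cyclophosphamide arrays of round spermatids. Strain and age were not given in the labels. Each array was taken as 1 rat, and where 1 rat gave more than 1 array of the same group the p-values would be too small. Pachytene cyclophosphamide arrays 16-2011 and 16-2012 share the number 16, and the labels do not say whether they come from 1 rat.

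In mammals these kinases are made in the testis, chiefly by cells that have completed meiosis, and the proteins act while spermatids elongate and their chromatin is packed. TSSK1 and TSSK2 bind and phosphorylate the scaffold protein TSKS and are needed together for male fertility in mice. TSSK3 is a related kinase that phosphoinositide-dependent kinase 1 can phosphorylate. TSSK6 is needed in mice for normal condensation of sperm chromatin.

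Tssk1b and Tssk2 are neighbours. In assembly GRCr8, Tssk2 lies on chromosome 11 from 96590864 to 96592219 and Tssk1b on the same strand from 96595216 to 96596639, with 2996 bases and no other gene of the table between them. Tssk3 lies on chromosome 5 from 147111944 to 147113593 and Tssk6 on chromosome 16 from 19551757 to 19559918. The sequences below, from RefSeq, are the 250 bases before the start of each of these genes. They are shown because the 4 genes were higher in the same cell type, and because the sequences of the neighbours hold a like stretch. Capitals mark TGACTTCA in Tssk1b and Tssk2, on either strand, and TGACG, the half-site of the cyclic AMP response element, in Tssk6.
Tssk1b, chr11:96596640-96596889, minus strand: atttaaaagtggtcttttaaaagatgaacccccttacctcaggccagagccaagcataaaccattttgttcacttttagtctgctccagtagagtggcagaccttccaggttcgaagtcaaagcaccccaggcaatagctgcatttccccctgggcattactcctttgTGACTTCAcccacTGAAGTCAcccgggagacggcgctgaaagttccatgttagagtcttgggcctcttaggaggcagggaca
Tssk2, chr11:96592220-96592469, minus strand: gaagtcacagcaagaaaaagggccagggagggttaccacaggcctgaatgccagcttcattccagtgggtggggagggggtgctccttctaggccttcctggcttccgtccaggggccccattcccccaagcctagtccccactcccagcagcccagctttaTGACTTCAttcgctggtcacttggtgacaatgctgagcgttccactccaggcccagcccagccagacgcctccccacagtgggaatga
Tssk3, chr5:147113594-147113843, minus strand: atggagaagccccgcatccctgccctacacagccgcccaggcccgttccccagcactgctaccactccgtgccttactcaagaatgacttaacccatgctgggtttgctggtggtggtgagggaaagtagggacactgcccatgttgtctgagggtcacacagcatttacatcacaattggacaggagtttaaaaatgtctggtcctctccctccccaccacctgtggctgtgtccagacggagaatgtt
Tssk6, chr16:19559919-19560168, minus strand: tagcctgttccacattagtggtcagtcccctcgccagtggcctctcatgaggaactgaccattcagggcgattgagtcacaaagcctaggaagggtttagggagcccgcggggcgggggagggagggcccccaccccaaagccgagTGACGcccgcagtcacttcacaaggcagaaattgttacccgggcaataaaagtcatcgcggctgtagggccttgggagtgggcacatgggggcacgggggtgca

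TGACTTCA occurred 2 times before Tssk1b, beginning 82 and 69 bases before the start, the second on the opposite strand. It occurred 1 time before Tssk2, beginning 88 bases before the start, and 1.43% of the 33469 promoters of the table held it. These letters were chosen for the search after the sequences had been read, so the matches are a description. The full cyclic AMP response element, TGACGTCA, was in none of the 4 sequences and in 1.59% of all promoters. The half-site TGACG, which is also contained in the full element, was before Tssk6 at 104 bases, in none of the other 3, and in 18.2% of all promoters. TATAAA was in none of the 4 and in 12.9% of all promoters. CCAAT was before Tssk3 alone, at 74 bases, and in 34% of all promoters. GGGCGG was before Tssk3 at 218 bases and before Tssk6 at 140 bases, and in 30.5% of all promoters. Both strands were searched in each case. The share of G and C was 49.6% before Tssk1b, 60.4% before Tssk2, 55.2% before Tssk3 and 61.2% before Tssk6.

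Levels are log2 intensities relative to the 75th percentile of the same array, so a level of 0 lies at that percentile. The 75th percentile was 1069 to 2423 intensity units over the arrays, and 65.3% to 76.4% of probes were well above background. Each kinase had 1 probe, printed in 2 spots for Tssk1b, Tssk2 and Tssk3 and in 1 spot for Tssk6. Every spot of the 4 kinases was well above background on all 22 arrays and none was saturated. The processed signals ran from 894.3 to 15390 for Tssk1b, from 5241 to 100400 for Tssk2, from 2590 to 103900 for Tssk3 and from 588.2 to 17190 for Tssk6. Levels of different probes were not set against each other. Probe sequences were not used here, and binding of 1 probe to the transcript of another family member was not tested. The marker lists followed the labelled cell types: the mean of 10 pachytene markers was 1.02 to 1.34 on pachytene arrays and -0.78 to -0.40 on round spermatid arrays, and the mean of 11 round spermatid markers was 0.46 to 1.74 and 3.46 to 3.94. Within the pachytene list 7 markers passed as lower in round spermatids of saline rats, while Dmc1 (1.02) and Ccna1 (1.33), named after their values were seen, passed as higher. Over all genes tested 37% passed as lower and 38.3% as higher. All 11 round spermatid markers were well above background on every pachytene array. Array correlations within a group were 0.981 to 0.9913.

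All 4 measured kinases were higher in round spermatids than in pachytene spermatocytes, by 5.34-fold to 6.66-fold in saline rats and by 7.57-fold to 10.9-fold in cyclophosphamide rats. In both treatments every round spermatid array lay above every pachytene array for each of the 4. Of the 19401 genes tested in saline rats, 38.3% passed as higher in round spermatids, and 28.7% had every round spermatid array above every pachytene array. In cyclophosphamide rats these shares were 38.8% and 32.5% of 19332 genes. The direction itself was thus common among the genes on the array. In saline rats the 4 differences exceeded those of 94.0% to 97.9% of the genes tested.

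Tssk1b, a kinase of the TSKS complex, had levels of 0.43, 0.87, 0.05, -0.34 and 0.43 in pachytene spermatocytes of saline rats 13, 16, 25, 26 and 28. Its round spermatid levels in saline rats ran from 2.63 through a median of 2.79 to 2.97. The groups did not overlap, and the round spermatid arrays stood closer together (SD 0.14, n = 6) than the pachytene arrays (SD 0.46, n = 5). The log2 difference was 2.51 ± 0.16 (SE), or 5.69-fold with a 95% interval of 4.50 to 7.18 (limma, adjusted p = 7.84e-12).

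Tssk2, its neighbour and partner in the same complex, had levels of 3.37, 3.51, 2.89, 2.42 and 2.97 in the same pachytene samples. The saline round spermatid arrays ran from 5.33 through a median of 5.48 to 5.81. Rats 13 and 16 were the highest of these pachytene samples and rat 26 the lowest, as it was for Tssk1b, and the groups were separate. The difference was 2.49 ± 0.18, or 5.61-fold with an interval of 4.34 to 7.25 (limma, adjusted p = 3.26e-11).

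Tssk3 had levels of 3.68, 3.61, 3.11, 2.43 and 2.995 in pachytene spermatocytes of saline rats 13, 16, 25, 26 and 28. In round spermatids of saline rats it ran from 5.38 through 5.62 to 5.75. The order of the pachytene samples was close to that of Tssk2, with rat 26 lowest. The difference was 2.42 ± 0.22, or 5.34-fold with an interval of 3.91 to 7.30 (limma, adjusted p = 1.01e-09).

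Tssk6, the kinase tied to chromatin condensation, had levels of 0.70, 0.49, -0.17, -0.91 and -0.03 in those pachytene samples. Its saline round spermatid levels ran from 2.35 through 2.82 to 3.097. It had the widest spread of the 4 among saline pachytene arrays (SD 0.63, n = 5), and the groups were still separate. The difference was 2.74 ± 0.24, or 6.66-fold with an interval of 4.75 to 9.35 (limma, adjusted p = 4.94e-10).

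**Figure D1:**
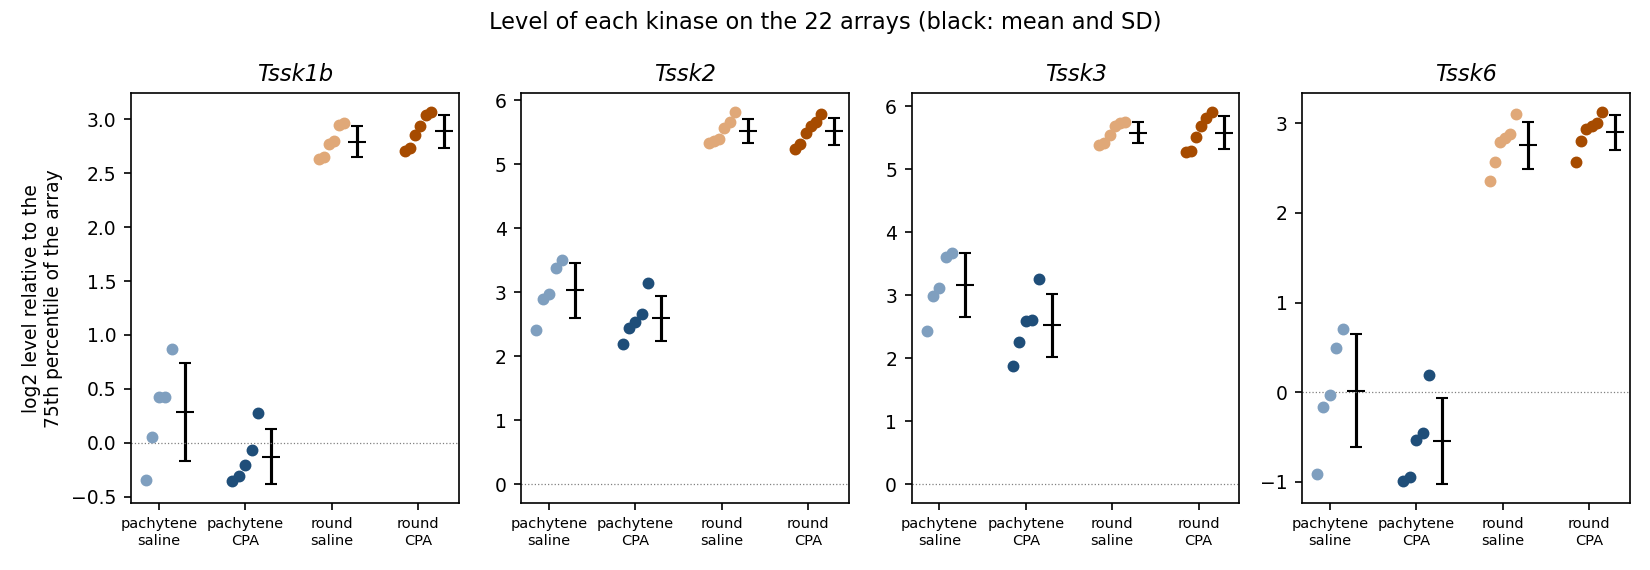
Log2 level of each kinase relative to the 75th percentile of the array (vertical axis) on the 22 arrays, 1 point per array, by cell type and treatment; black marks are the mean and SD of the group. In each panel the round spermatid arrays lie above all pachytene arrays, and the pachytene arrays are more spread out.

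The order of the group means was the same for Tssk1b and Tssk6, with round spermatids of cyclophosphamide rats highest (2.89 and 2.90), then those of saline rats (2.79 and 2.75), pachytene spermatocytes of saline rats (0.29 and 0.02) and those of cyclophosphamide rats (-0.13 and -0.55). For Tssk2 and Tssk3 the round spermatid means were level, at 5.52 in saline and 5.51 in cyclophosphamide rats and at 5.58 in both, above 3.03 and 3.16 in pachytene spermatocytes of saline rats and 2.59 and 2.52 in those of cyclophosphamide rats. Neighbours of 1 cell type overlapped in every case.

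In cyclophosphamide rats the differences between the cell types were 3.02 ± 0.16 for Tssk1b, 2.92 ± 0.18 for Tssk2, 3.06 ± 0.22 for Tssk3 and 3.45 ± 0.23 for Tssk6 (log2 ± SE). The limma adjusted p-values were 2.24e-13, 1.32e-12, 1.39e-11 and 7.24e-12 in that order. Round spermatids of cyclophosphamide rats had levels of 2.70 to 3.07 for Tssk1b, 5.23 to 5.78 for Tssk2, 5.28 to 5.91 for Tssk3 and 2.56 to 3.12 for Tssk6, with medians of 2.90, 5.54, 5.60 and 2.95. All slides that held round spermatid arrays also held pachytene arrays. On slide 1 alone the difference in saline rats was 2.04 for Tssk6 and 1.87 for Tssk3, and on slide 2 it was 2.93 and 2.50. On slide 1 the Tssk6 difference in cyclophosphamide rats was 2.78. With slide as a block over all arrays the saline differences were 2.41, 2.27, 2.10 and 2.40 for Tssk1b, Tssk2, Tssk3 and Tssk6, and all 4 passed. Slides 1 and 2 each held 1 pachytene array a treatment, so their within-slide values are given without a test.

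Whether the kinases differed from each other in the size of the step was tested with the difference of 2 kinases on the same array, by an exact two-sided permutation test between the cell types. 12 such comparisons were made, 6 pairs in each treatment, and none passed after Benjamini-Hochberg adjustment. The closest was Tssk2 minus Tssk6 in cyclophosphamide rats, which was 3.14 ± 0.17 (SD, n = 5) in pachytene spermatocytes and 2.61 ± 0.16 (SD, n = 6) in round spermatids (exact permutation p = 0.00433, adjusted 0.052). That p is the smallest the design allows, and over 12 comparisons it adjusts to above 0.05, so no pair could have passed on its own. Tssk1b minus Tssk2 moved by 0.02 between the cell types in saline rats and by 0.10 in cyclophosphamide rats (exact permutation adjusted p = 0.827 and 0.242). The shift of Tssk6 against Tssk3 was -0.32 for Tssk3 minus Tssk6 in saline rats and -0.39 in cyclophosphamide rats (exact permutation adjusted p = 0.052 and 0.242).

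Cyclophosphamide changed none of the 4 kinases past the threshold in either cell type. In pachytene spermatocytes the mean of each kinase was lower in cyclophosphamide rats, and 0% of the 18450 genes tested passed. In round spermatids 0% of 18843 genes passed. At an unadjusted p under 0.05, 356 genes were higher and 989 lower in pachytene spermatocytes, and 366 higher and 260 lower in round spermatids (limma). The 4 kinases were all among the 989 genes that were lower at that level, which are 5.36% of those tested. Leaving out 1 array at a time, Tssk3 stayed under that p in all 10 fits, Tssk1b in 7, Tssk2 in 6 and Tssk6 in 6. The differences then ran from -0.57 to -0.27 for Tssk1b, -0.59 to -0.32 for Tssk2, -0.83 to -0.48 for Tssk3 and -0.80 to -0.39 for Tssk6. The values of Tssk1b and Tssk2 nearest to 0 came without saline rat 16, that of Tssk3 without cyclophosphamide rat 7 and that of Tssk6 without saline rat 13. All these fits used 1 spread shared by the 4 groups. For each kinase the pachytene arrays were more spread out than the round spermatid arrays. For Tssk6 the SDs in saline and cyclophosphamide rats were 0.63 and 0.48 against 0.26 and 0.19. The SEs and p-values for the drug in pachytene spermatocytes, here and below, may thus be too small. The same holds for the cell type differences in saline rats, whose intervals may be too narrow, and for the difference of the drug effects.

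In pachytene spermatocytes of cyclophosphamide rats 7, 15, 16-2011, 16-2012 and 29, Tssk1b had levels of -0.21, 0.28, -0.30, -0.36 and -0.07. Rat 15 lay above 2 of the 5 saline arrays, and rat 16-2012 just below the lowest of them. The difference to saline was -0.42 ± 0.17, or 1.34-fold lower (limma, unadjusted p = 0.0217, adjusted p = 0.681).

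Tssk2 had levels of 2.53, 3.15, 2.44, 2.19 and 2.66 in the same rats. The groups overlapped, with rat 15 above 3 of the 5 saline arrays. The difference was -0.44 ± 0.19, or 1.36-fold lower (limma, unadjusted p = 0.0278, adjusted p = 0.681).

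Tssk3 had levels of 1.88, 3.25, 2.60, 2.26 and 2.61 in those rats. Its difference of -0.64 ± 0.23, or 1.56-fold lower, had the smallest unadjusted p of the 4 (limma, unadjusted p = 0.00936, adjusted p = 0.681). The lowest value, in rat 7, was the mean of spots that read 2.56 and 1.21, while on the other 21 arrays the duplicate spots of Tssk3 differed by at most 0.20. With the brighter spot of each array the difference was -0.51, and with the dimmer spot -0.78. Neither spot was marked as an outlier in the scanner file.

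Tssk6 had levels of -0.45, 0.19, -0.95, -0.99 and -0.54, and saline rat 26, at -0.91, lay among the lowest of them. The difference was -0.56 ± 0.24, or 1.48-fold lower (limma, unadjusted p = 0.0308, adjusted p = 0.681). Rat 15 was the highest cyclophosphamide array for each of the 4 kinases, while the order of the others differed: rat 7 was the lowest for Tssk3 and above rat 29 for Tssk6.

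In round spermatids the drug differences were 0.10 for Tssk1b (95% interval -0.22 to 0.42), -0.01 for Tssk2 (-0.36 to 0.35), -0.00 for Tssk3 (-0.43 to 0.43) and 0.15 for Tssk6 (-0.32 to 0.61). The limma adjusted p was 0.9997 for each. The groups overlapped for all 4. For Tssk2 and Tssk3 the sign turned under other scalings, with quantile values of 0.015 and 0.018.

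The drug difference in round spermatids minus that in pachytene spermatocytes was 0.51 ± 0.23 for Tssk1b, 0.43 ± 0.25 for Tssk2, 0.64 ± 0.31 for Tssk3 and 0.71 ± 0.33 for Tssk6 (log2 ± SE). None passed, and 0% of 19643 genes did. The limma adjusted p was 0.634 for Tssk1b, Tssk3 and Tssk6 and 0.657 for Tssk2. At an unadjusted p under 0.05, 997 genes were higher and 505 lower in this contrast. Tssk1b, Tssk3 and Tssk6 were among the 997, which are 5.08% of those tested, and Tssk2 was not (limma, unadjusted p = 0.102). Leaving out 1 array at a time gave 22 fits. Tssk1b was under that p in 12 of them, Tssk3 in 7, Tssk6 in 9 and Tssk2 in 2. Over all alternatives the lowest differences were 0.11, 0.06, 0.31 and 0.43 for Tssk1b, Tssk2, Tssk3 and Tssk6. The highest were 0.67, 0.59, 0.83 and 0.94. Slides 3 and 4 held pachytene arrays alone, so slide and scan session are partly tied to cell type in this contrast.

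**Figure D2:**
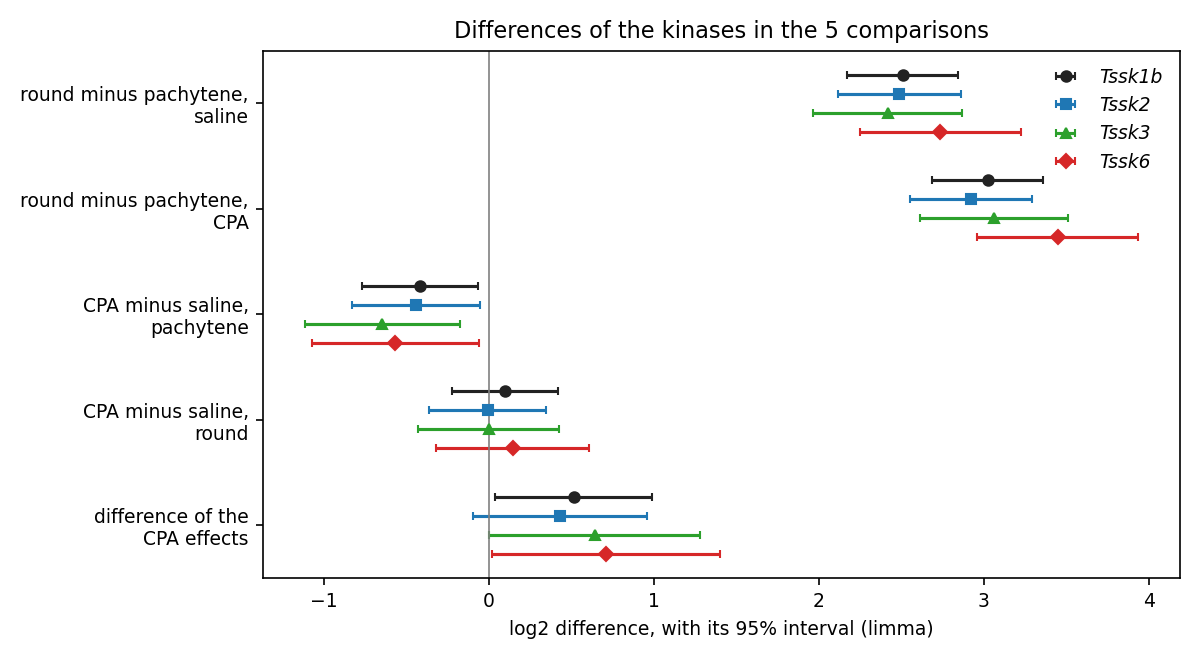
Log2 difference of each kinase (horizontal axis) with its 95% interval from limma, in the 5 comparisons; CPA is cyclophosphamide. The cell type differences lie between 2.42 and 3.45, and the drug differences in round spermatids all have intervals that include 0.

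The drug difference in pachytene spermatocytes could be set within each of 4 slides, with 1 or 2 arrays a group on each. Tssk1b gave -0.15, -0.12, -0.68 and -0.62 on slides 1 to 4. Tssk2 gave -0.23, -0.23, -0.49 and -0.77. Tssk3 gave -0.42, -0.50, -0.76 and -0.76, and Tssk6 gave -0.51, -0.37, -0.67 and -0.79. Every one of these was below 0, and those of slides 3 and 4, read in another scan session, were the larger for each kinase. With slide as a block the differences were -0.43, -0.46, -0.63 and -0.60 in the same order of kinases, with none past the threshold.

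**Figure D3:**
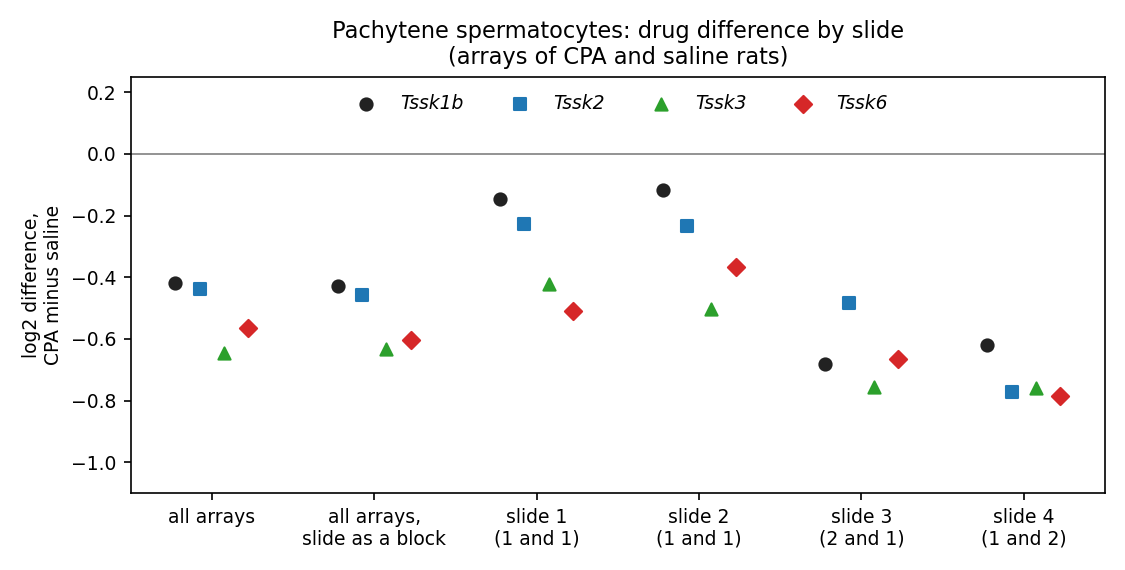
Log2 drug difference of each kinase in pachytene spermatocytes (vertical axis), over all arrays, with slide as a block, and within each slide; numbers in brackets are the arrays of cyclophosphamide (CPA) and saline rats. All points lie below 0, and Tssk1b ranges from -0.68 on slide 3 to -0.12 on slide 2.

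Markers of round spermatids moved with the kinases on the pachytene arrays. The mean of the 11 markers, none of them a kinase of the family, was 1.43, 1.74, 1.11, 0.58 and 1.11 in saline rats 13, 16, 25, 26 and 28. It was 0.65, 1.24, 0.65, 0.46 and 0.93 in cyclophosphamide rats 7, 15, 16-2011, 16-2012 and 29. Rats 13 and 16 of the saline group and rat 15 of the cyclophosphamide group had the highest marker means, and these 3 were also the highest pachytene arrays for Tssk2 and Tssk3. For Tssk1b saline rat 28 lay above rat 15 and level with rat 13. The means of the groups were 1.19 ± 0.43 and 0.78 ± 0.30 (SD, n = 5 each), a difference of -0.41. In round spermatids they were 3.68 ± 0.17 and 3.71 ± 0.18 (SD, n = 6 each), a difference of 0.03.

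Across the 10 pachytene arrays the Pearson r between the marker mean and the kinase was 0.965 for Tssk1b, 0.987 for Tssk2, 0.918 for Tssk3 and 0.939 for Tssk6, with Spearman rho of 0.927, 0.988, 0.915 and 0.952. Across the 12 round spermatid arrays r was 0.926, 0.885, 0.799 and 0.427. These values describe arrays that share slides, labelling and scaling and carry no test. When the marker mean entered the fit of the pachytene arrays as a covariate, an alternative chosen after seeing the data, the drug difference was -0.03 ± 0.12 for Tssk1b, -0.01 ± 0.10 for Tssk2, -0.15 ± 0.18 for Tssk3 and -0.00 ± 0.17 for Tssk6 (log2 ± SE). The limma adjusted p-values were 0.976, 0.992, 0.93 and 0.999. The markers were themselves measured on these arrays, followed the kinases closely and had a drug difference of -0.41. Kinase differences near 0 were thus largely set in advance, and no conclusion is drawn from this fit. For the drug in pachytene spermatocytes 0 of the 11 passed, with all 11 below 0 and 6 of them at an unadjusted p under 0.05 (limma). Their median was -0.35, against 0.03 over all genes tested, of which 5.36% were lower at that p. In these cell fractions a smaller number of spermatids and less of the transcripts per cell cannot be told apart.

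**Figure D4:**
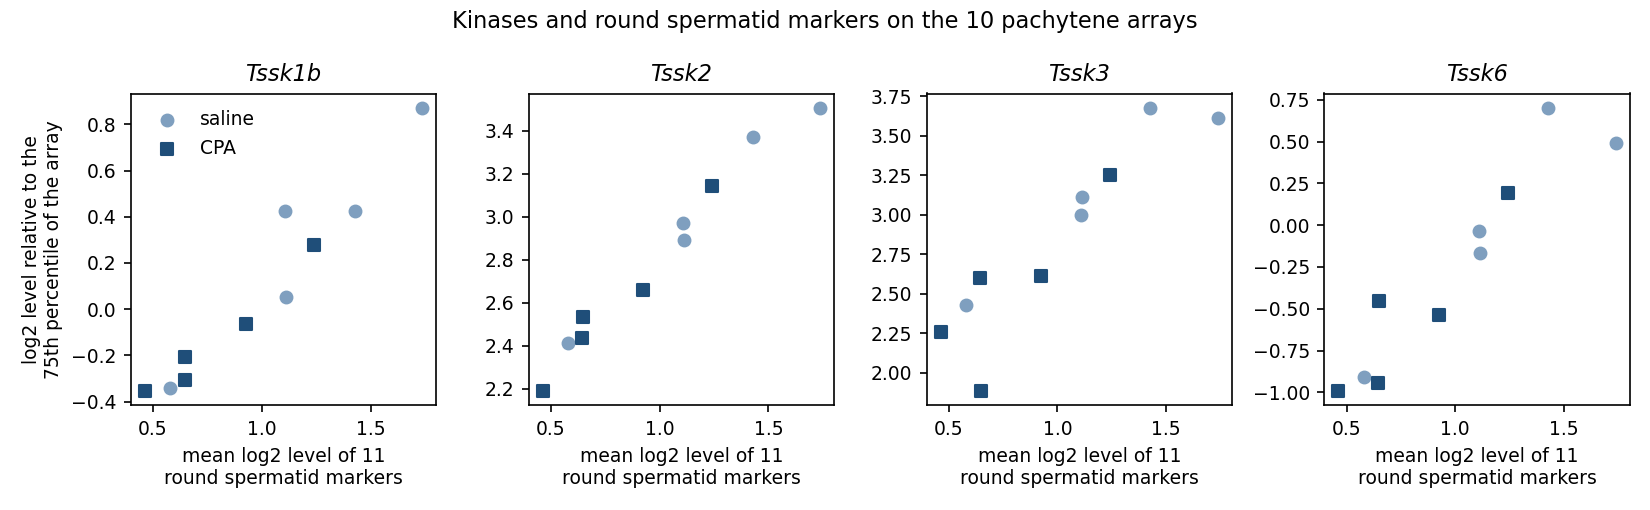
Log2 level of each kinase (vertical axis) against the mean log2 level of 11 round spermatid markers (horizontal axis) on the 10 pachytene arrays, circles for saline and squares for cyclophosphamide (CPA). Arrays with a higher marker mean tend to have a higher kinase level, with exceptions in order such as saline rat 16 for Tssk6, and the lowest Tssk3 point is rat 7, whose spots disagreed.

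Markers listed for other cell types were read as well, which does not by itself show that those cells were present. Lhcgr of the Leydig list and Tek of the endothelial list were well above background on no array. In round spermatids of saline rats 7 Sertoli markers passed as lower and 1 as higher. Of the 5 spermatogonial markers 3 passed as higher and 1 as lower. Over all genes tested 38.3% passed as higher and 37% as lower. The spermatogonial counts are too small to set apart from these shares. The mean of 8 macrophage markers was -4.35 to -2.91 on pachytene arrays and -1.36 to 0.10 on round spermatid arrays, where all 8 passed as higher in saline rats. The mean of 9 Sertoli cell markers was -1.84 to -1.20 on pachytene arrays and -3.82 to -2.86 on round spermatid arrays. The mean of 8 markers of elongating spermatids, the next stage, was 3.94 to 5.32 and 6.06 to 6.88. The mean of 5 spermatogonial markers was -2.43 to -1.83 and -1.78 to -1.21. The 6 Leydig cell markers had means of -2.44 to -0.87 and -4.22 to -2.49, the 5 of peritubular myoid cells -3.28 to -1.98 and -1.85 to -0.66, and the 5 of endothelium -4.88 to -4.17 and -5.25 to -4.47. For the drug in pachytene spermatocytes no marker of these lists passed, but several lists lay on 1 side: 8 of 8 elongating spermatid markers (median -0.38), 8 of 8 macrophage markers (-0.24), 4 of 4 peritubular markers tested (-0.25) and 4 of 4 endothelial markers tested (-0.08) were below 0. Of 9 pachytene markers tested, 8 were above 0 (median 0.13). Over all genes tested the median was 0.03, and the share on either side of 0 was not counted. Whether such cells had a part in the kinase differences was not tested.

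Of 12 partners, substrates and regulators of the kinases, 5 passed as higher and 4 as lower in round spermatids of saline rats. Over all genes tested 38.3% passed as higher and 37% as lower, so these counts are near the background. The list had a median log2 difference of 0.12 against 0.01 over all genes. Tsks, the scaffold that TSSK1 and TSSK2 phosphorylate, rose from 4.92 to 6.70, or 3.44-fold (log2 1.78 ± 0.20, SE, limma, adjusted p = 3.60e-08). Creb1, a transcription factor of the cyclic AMP pathway that TSSK4 can phosphorylate, rose 3.23-fold (1.69 ± 0.12, limma, adjusted p = 2.05e-11). Pdpk1, the phosphoinositide-dependent kinase, rose 3.03-fold (1.60 ± 0.14, limma, adjusted p = 1.16e-09). H2ax, a histone variant that is phosphorylated at DNA breaks and in condensing spermatids, was 5.15-fold lower in round spermatids (-2.36 ± 0.15, limma, adjusted p = 4.33e-12). Odf2, Spag16 and Ppp1cc, named after their values were seen, did not pass. For the drug in pachytene spermatocytes 0 of 12 passed, with 6 above and 6 below 0 and a median of -0.003. Over all genes tested the median was 0.03. Tsks had the lowest difference of the 12, at -0.46 ± 0.21, beside -0.42 for Tssk1b and -0.44 for Tssk2.

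Genes of spermatid chromatin condensation were mostly higher in round spermatids. Of 12 listed, 9 were on the array, of which 7 passed as higher and 2 as lower, beside 38.3% and 37% of all genes tested. The median was 1.47 against 0.01 over all genes. Prm2, a protamine that replaces histones in sperm, rose from 3.17 to 5.71, or 5.82-fold (2.54 ± 0.27, limma, adjusted p = 1.49e-08). H1f7, a linker histone of spermatids, rose 5.51-fold (2.46 ± 0.18) and Prm3 3.64-fold (1.86 ± 0.24). Rnf8, a ubiquitin ligase that acts at DNA breaks and on histones, was 4.37-fold lower (-2.13 ± 0.10, limma, adjusted p = 9.54e-14). In pachytene spermatocytes 0 of the 9 passed for the drug, with a median of -0.36 against 0.03 over all genes tested and a difference of -0.65 ± 0.28 for Prm2. 4 of the 9, Prm1, Prm2, Tnp1 and Tnp2, also stand in the list of elongating spermatid markers.

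Of 25 other protein kinases of male germ cells, 18 were on the array, and 7 passed as higher and 8 as lower in round spermatids of saline rats. These counts too are near the background of 38.3% and 37%, and the median was 0.09. Cdk16, a cyclin-dependent kinase needed for spermatid differentiation, rose 6.86-fold (2.78 ± 0.25, limma, adjusted p = 8.48e-10), a step of the size seen for Tssk6. Camk4, a calcium/calmodulin kinase of spermatids, rose 4.44-fold (2.15 ± 0.17). Pbk, a kinase of mitotic and meiotic cells, was 24.9-fold lower (-4.64 ± 0.32) and Cdk2, needed for meiotic prophase, 13.4-fold lower (-3.74 ± 0.18). The drug differences of these 4 in pachytene spermatocytes were -0.29 for Cdk16, -0.27 for Camk4, 0.17 for Pbk and 0.17 for Cdk2, and 0 of the 18 passed.

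**Figure D5:**
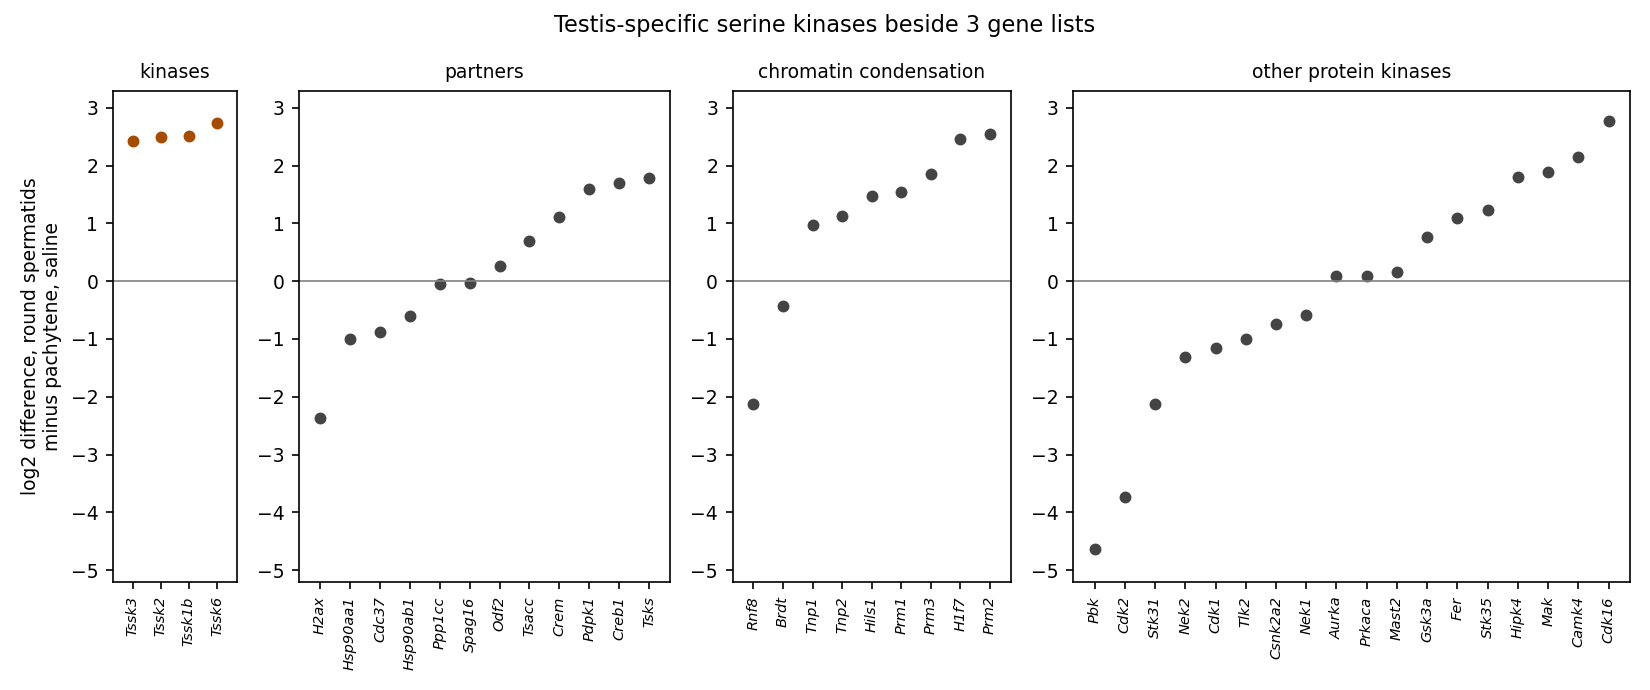
Log2 difference between round spermatids and pachytene spermatocytes of saline rats (vertical axis) for the 4 kinases and for the genes of 3 lists that were tested, 1 point per gene, ordered within each panel. The 4 kinases lie between 2.42 and 2.74, while the partners run from -2.36 to 1.78 and the other kinases from -4.64 to 2.78.

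After each group was centred on its mean, the kinases varied together over the 22 arrays. The Pearson r was 0.928 between Tssk1b and Tssk2, 0.883 between Tssk2 and Tssk3, 0.880 between Tssk2 and Tssk6, 0.799 between Tssk1b and Tssk6, 0.796 between Tssk1b and Tssk3 and 0.789 between Tssk3 and Tssk6. Among 11218 named genes ranked by likeness to 1 kinase, the other kinases ranked from 13 (Tssk2 for Tssk3) to 423 (Tssk3 for Tssk1b). Over the 12 round spermatid arrays alone Tssk1b and Tssk2 stayed alike (r = 0.915), while Tssk1b and Tssk6 had r = 0.394. The genes most like Tssk1b were Spata21 (r = 0.962), Prss46 (0.960) and Ccdc63 (0.950). For Tssk2 they were Klhl12 (0.974), Znrf4 (0.974) and Iqcf3 (0.970). For Tssk3 they were Cdv3 (0.916), Cdc14a (0.911) and Znrf4 (0.895), and for Tssk6 Osbp2 (0.967), Azin2 (0.967) and Bpifa3 (0.966). Each of these 11 genes, Znrf4 counted once, was also higher in round spermatids of saline rats, by 4.52-fold to 6.74-fold. Over all genes tested 38.3% passed as higher. The 11 were picked from these same arrays, so their shared direction is a description. The arrays share slides, scaling and the makeup of each cell fraction, and r is given as a description.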

How the data were processed

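RNA of each sample was read on a one-colour Agilent rat array. Per the file headers, the deposited scanner values are processed signal intensities from Feature Extraction 10.7.3.1; the submitters' processing notes name version 11.5.1.1. The authors' deposited value table holds log2 values centred within a cell type and served only as an alternative for the drug comparisons; its exact centring is not given in the sources used here. Control spots and spots marked as outliers were left out, and the log2 intensities of a probe's spots were averaged and set relative to the array's 75th percentile. Accessions named 17998 of 30367 probes through the RefSeq table of assembly GRCr8. A gene with several probes took the brightest. Identifiers without a gene name were kept in the same way and count among the genes tested. A probe entered a test if, in 1 or more of the groups compared, no more than 1 array lacked a majority (more than 0.5) of its spots well above background. Differences were tested with limma 3.58.1 in R 4.3.3, on group means of the 22 arrays together, with a threshold of 0.05 on p-values adjusted by Benjamini-Hochberg over all genes tested. The fit was tested on simulated data. Alternatives were quantile normalization, normexp, other filters, slide blocks and leaving out each array. The number of arrays limits the precision, and the labels do not say that equal rat numbers name 1 animal. The members, gene lists and rules were chosen with earlier results of these data known. Named from each list were the 4 largest differences between cell types in saline rats among genes that passed, and, for each kinase, the 3 genes of highest Pearson r after centring on group means.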

Additional observations from a re-analysis of the deposited data

How the results depend on the processing

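In the cell type comparisons the 24 alternatives gave log2 differences of 1.87 to 2.93 in saline rats and 2.48 to 3.63 in cyclophosphamide rats. The fits within slide 1 or 2 hold 1 pachytene array a treatment, so they are given here as effect sizes only, with no call. Leaving these aside, all 4 kinases passed in either treatment under each alternative. In the drug comparisons and their difference none passed under any alternative. The drug differences in pachytene spermatocytes stayed below 0 in all 26 alternatives. In round spermatids the sign turned for Tssk1b within slide 2 (-0.013) and with a replicate block (-0.016), and for Tssk6 with a replicate block (-0.0505). That block joined saline and cyclophosphamide rats of equal number (15, 16 and 25). They are rats of different treatments, so the pairs have no basis in the design. Tssk2 turned under quantile normalization (0.015), normexp (0.042), within slide 1 (0.17) and in the authors' deposited table (0.016), and Tssk3 under quantile normalization (0.018), within slide 1 (0.19), with the brighter spot (0.0035) and in the authors' deposited table (0.022). Leaving out 1 array gave -0.0598 to 0.053 for Tssk2 and -0.0658 to 0.0604 for Tssk3. The cause was not tested.

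The replicate block on rat numbers left the saline cell type differences at 2.51, 2.49, 2.42 and 2.74, and it changed no call. Same-numbered arrays of 1 treatment correlated at -0.096 to 0.379 after centring. Those arrays are of different cell types, so the correlations cannot show whether equal numbers name 1 rat. The main fits did not pair the arrays. No block on rat numbers was fitted for the drug in pachytene spermatocytes because the groups share fewer than 2 numbers. The count of all genes that passed for the drug in pachytene spermatocytes rose from 0 to 93 within slide 3, 9 within slide 4 and 1 within slide 1 or without cyclophosphamide rat 29. For the drug in round spermatids it was 1 within slide 1 and 4 within slide 2, and for the difference of the drug effects 1 to 3 in 8 alternatives. No kinase was among them. The planned normexp on mean spot signals was not run, since the scanner files used here hold median signals; normexp on these, slides 1 and 2 alone, the spot choices and the marker covariate were chosen after seeing the data.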
